A study of Homo sapiens with 10 samples.

Results

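The MYC and MAX network is a set of transcription factors that pair with one another and compete for the same DNA element. Here it was represented by 9 genes picked by symbol from the 18034 gene IDs of the deposited tables: MYC, its partner MAX, the repressors MXD1, MXD3, MXD4, MXI1 and MNT, the MAX-like factor MLX, and MYCBP, which encodes a MYC-binding protein. All 9 were found, and all 9 passed the filter on low values in both experiments. RNA was sequenced in 5 groups of 2 libraries from HCT116 cells, a human line established from a colorectal carcinoma. EPZ cells were given the DOT1L inhibitor EPZ-5676 at 10 µM, with 72 h stated as the treatment time, and DMSO cells were their vehicle controls, both without knockdown. K56A, WT and EV cells all carried a short hairpin RNA against CDK9 and had no drug treatment. K56A cells were reconstituted with a CDK9 that has alanine in place of lysine 56, and WT cells with wild-type CDK9. EV cells are labelled by those letters only, which the labels do not expand, and a line of that experiment without the hairpin was not analysed here. The labels name neither clones nor separate cultures, and p-values therefore reflect library-to-library spread that may be technical. The study concerns methylation of CDK9 by DOT1L. The comparisons ask how the network's RNAs differ under DOT1L inhibition, and with the K56A mutant or wild-type CDK9 put back.

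MYC activates transcription only as a dimer with MAX, and the dimer binds the E-box, whose core letters are CACGTG. MXD1, MXD3, MXD4, MXI1 and MNT also bind E-boxes as dimers with MAX, and recruit SIN3 corepressor complexes that carry histone deacetylases. MLX pairs with the nutrient sensors MLXIP (MondoA) and MLXIPL (ChREBP), and with some of the repressors. MYC RNA and protein are both short-lived, and MYC transcription needs steady work by CDK9, the kinase that releases paused RNA polymerase II. In colorectal cancer, MYC is a well-known target of Wnt and beta-catenin signalling.

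The element the factors share is shown in its place in 3 of the 9 genes, because MYC and MAX family dimers can bind such letters in the genes of the network itself. RefSeq windows (GRCh38.p14, 250 bases before to 50 bases after a start) were matched for 8 of the 9 members, and the window of MYC was not used here. CACGTG, which reads the same on both strands, was present in 3 of the 12 windows of these members, 1 for each of 3 genes, and in 7.26% of the 35116 windows of all genes. A match is a description of the letters and not a bound site. The capitals mark the E-box, and each line reads 5′ to 3′ on the gene's own strand.
MXD4, chr4:2262312-2262359, minus strand: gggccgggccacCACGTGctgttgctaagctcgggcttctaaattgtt
MNT, chr17:2401218-2401283, minus strand: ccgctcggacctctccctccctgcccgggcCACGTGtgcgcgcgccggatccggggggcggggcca
MLX, chr17:42567020-42567085, plus strand: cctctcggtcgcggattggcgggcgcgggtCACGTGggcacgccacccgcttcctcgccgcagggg
The first E-box letter lay at position -238 from the RefSeq start in MXD4, at -193 in MNT and at -50 in MLX.

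Values are gene FPKM (fragments per kilobase of transcript, corrected for library size), summed over a gene's transcripts. FPKM hide the absolute depth. Relative depths, estimated from the files, lay between 1 and 1.29 times that of DMSO replicate 1 in the inhibitor experiment and between 0.87 and 1.21 times that of EV replicate 1 in the knockdown experiment. Epithelial markers were present in all libraries, with 6 of 9 colon epithelial markers at 1 FPKM or more in each group, while CDX1, VIL1 and KRT20 were not. The 9 summed to between 1434 and 1437 FPKM in K56A and 1369 and 1370 FPKM in WT, against 1468 to 1504 FPKM in EV, and to 2026 to 2181 FPKM in EPZ, against 2058 to 2170 FPKM in DMSO. CLDN7, a claudin of tight junctions, fell in K56A (-0.28 ± 0.04 log2, SE; limma adjusted p = 0.0265) and in WT (-0.41 ± 0.04 log2, SE; limma adjusted p = 0.0125), both against EV, while in the fits without 1 library it passed in 0 of 4 and in 1 of 4. The 6 epithelial markers tested did not move together in the comparisons with EV: 3 were above 0 and 3 below in K56A against EV. In WT against EV 2 were above 0 and 4 below, and in K56A against WT all 6 were above 0. Of 12 markers of other cell types, ACTA2 and COL1A1 reached 1 FPKM in every group and ALB in EV alone; COL1A1 had 36.2 and 34.5 FPKM in K56A and 34.1 and 33.1 FPKM in WT, against 29.9 and 27.4 FPKM in EV. In such bulk RNA, fewer cells that express a gene and less of its RNA per cell cannot be told apart. CDK9 stood at 2611 and 2500 FPKM in K56A and at 3060 and 2976 FPKM in WT, against 16.4 and 19.5 FPKM in EV. CDK9 was at 41.9 and 38.5 FPKM in EPZ, against 43.9 and 37.6 FPKM in DMSO. K56A and WT thus held far more CDK9 RNA than the cells without knockdown, and EV held less. DOT1L stood at 733 and 703 FPKM in K56A and at 578 and 568 FPKM in WT, against 324 and 343 FPKM in EV. DOT1L was at 10.7 and 10.4 FPKM in EPZ, against 12.6 and 12.6 FPKM in DMSO. Every knockdown line thus held far more DOT1L RNA than the cells without knockdown, a feature the labels do not mention. Mitochondrial transcripts took 25.3% and 25.4% of FPKM in K56A and 27.7% and 27.1% in WT, against 27.9% and 27.5% in EV. They took 18.4% and 19.3% in EPZ, against 17.3% and 17.6% in DMSO. The part of these differences in the results below was not tested, apart from a rescaling without mitochondrial genes.

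**Figure D1:**
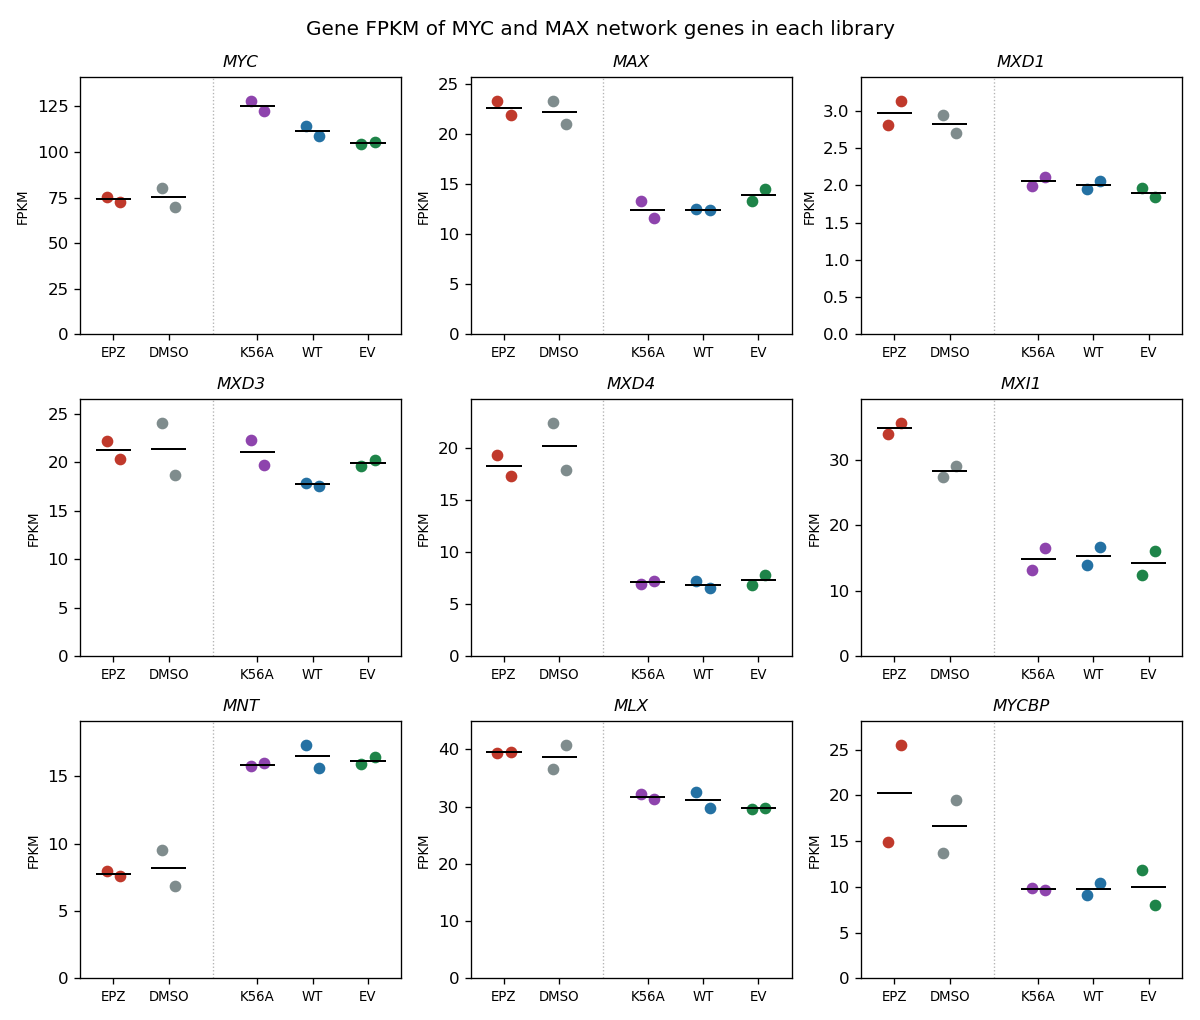
Gene FPKM (vertical axis, linear from 0) of the 9 network genes in each of the 10 libraries. Each point is a library, each black bar the mean of 2, and the dotted line separates the inhibitor experiment from the knockdown experiment, which were normalized apart. MYC is the only panel in which the K56A libraries, at 128 and 123 FPKM, passed the test against EV, at 104 and 106 FPKM.

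MYC (ENSG00000136997, chromosome 8), the activator, was the most abundant member in all 5 groups. Its FPKM was 128 and 123 in K56A libraries and 114 and 109 in WT libraries, against 104 and 106 in EV libraries. The 3 groups did not overlap: both K56A libraries stood above both WT libraries, which stood above both EV libraries. MYC averaged 125.5 ± 3.88 FPKM in K56A and 105.0 ± 0.927 FPKM in EV (SD, n = 2 each), a ratio of 1.195. MYC rose in K56A relative to EV, with a log2 fold change of 0.26 ± 0.04 (SE; 95% interval 0.16 to 0.36; limma, Benjamini-Hochberg adjusted p = 0.0476). It was 1 of 9 members that passed in this comparison, where 0.787% of the 11566 genes tested passed, 22 of them higher (0.19%) and 69 lower. With median ratio scaling, 15 genes passed as higher and 94 as lower. The call held in 3 of 13 alternatives, with adjusted p between 0.0426 and 0.263, while the log2 fold change lay between 0.22 and 0.29. Without K56A replicate 1 the limma adjusted p was 0.263, without K56A replicate 2 it was 0.174, without EV replicate 1 it was 0.159 and without EV replicate 2 it was 0.110.

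The wild-type kinase and the inhibitor gave no call for MYC. MYC averaged 111.5 ± 4.17 FPKM in WT, against 105.0 ± 0.927 FPKM in EV (SD, n = 2 each). The log2 fold change was 0.09 ± 0.04 (SE; 95% interval -0.014 to 0.19; limma adjusted p = 0.446). K56A set directly against WT gave 0.17 ± 0.04 (SE; 95% interval 0.069 to 0.27), with an unadjusted p of 0.0045 and a limma adjusted p of 0.180. The libraries of K56A and WT were apart, but the difference between the mutant and wild-type kinase did not pass. The 3 contrasts share the K56A, WT or EV libraries with one another. In the inhibitor experiment MYC had 75.4 and 72.5 FPKM in EPZ, against 80.1 and 70.1 FPKM in DMSO. The EPZ values lay inside the span of the DMSO values, and the log2 fold change of -0.02 ± 0.12 (SE; limma adjusted p = 0.972) had a 95% interval from -0.29 to 0.25, or 0.819 to 1.19 times the DMSO level.

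Both main MYC transcripts were higher in K56A than in EV, with the wider gap in MYC-202. MYC-202 had 55.9 and 55.4 FPKM in K56A and 52.4 and 44.3 FPKM in WT, against 45.0 and 43.4 FPKM in EV. MYC-205 had 61.8 and 59.8 FPKM in K56A and 55.0 and 45.5 FPKM in WT, against 52.4 and 58.4 FPKM in EV. For both transcripts the K56A libraries stood above the EV libraries. In the second WT library, where both main transcripts were lower than in the first, the minor MYC-210 was estimated at 14.4 FPKM, against 0 to 5.88 FPKM in the other 9 libraries. In the authors' deposited table, MYC-202 was called in K56A against EV, with a log2 fold change of 0.29 (adjusted p = 9.028e-08), and MYC-205 was not, with 0.10 (adjusted p = 0.959). In the authors' deposited table for WT against EV, MYC-202 had 0.11 and MYC-205 had -0.16, neither called. Of the 51 member transcripts in each of the authors' deposited tables, 3 were called in K56A against EV, where 3.8% of all transcripts were, 2 in WT against EV, where 3.33% were, and 0 in EPZ against DMSO, where 1.2% were.

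**Figure D2:**
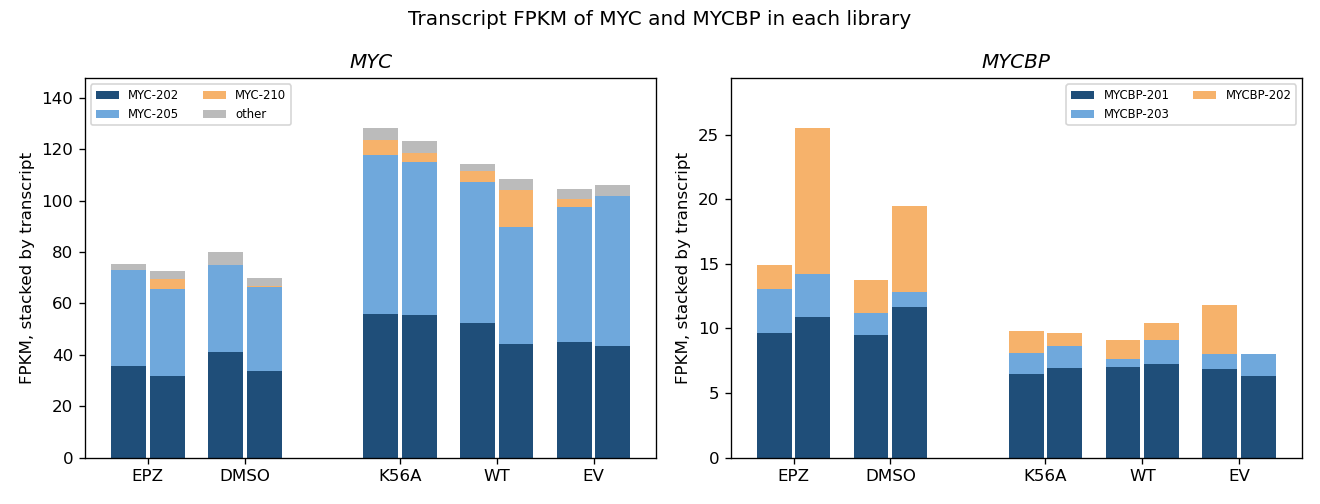
FPKM of the transcripts of MYC (left) and MYCBP (right) in each library, stacked so that the top of a bar is the sum over transcripts listed for that library. EV bars draw on both knockdown tables. Both tall MYC segments, MYC-202 and MYC-205, are higher in K56A than in EV, and the MYCBP-202 segment of 11.3 FPKM lifts 1 EPZ library above the rest.

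MAX (ENSG00000125952, chr14:65060918-65102544, minus strand, GRCh38) is the partner that MYC and its antagonists share, and it passed in no comparison. It had 13.3 and 11.6 FPKM in K56A and 12.5 and 12.4 FPKM in WT, against 13.4 and 14.5 FPKM in EV. Neither K56A nor WT overlapped EV, with 13.26 FPKM in the higher K56A library and 13.35 FPKM in the lower EV library. With all transcripts of the K56A table summed, the higher K56A library had 13.44 FPKM and the groups overlapped, so that separation rests on which transcripts are summed. The log2 fold changes were -0.16 in each comparison (SE 0.08; limma adjusted p = 0.415 for K56A and 0.469 for WT), so neither passed. MAX had 23.3 and 21.9 FPKM in EPZ, against 23.3 and 21.0 FPKM in DMSO, values that overlapped throughout (log2 fold change 0.03 ± 0.13, SE).

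Within each library, MYC FPKM divided by MAX FPKM was 9.67 and 10.5 in K56A and 9.18 and 8.79 in WT, against 7.82 and 7.31 in EV. The 3 groups did not overlap, with EV lowest. In the inhibitor experiment the ratio was 3.23 and 3.32 in EPZ, against 3.43 and 3.33 in DMSO. MXD1, MXD3, MXD4, MXI1 and MNT summed, divided by MYC, came to 0.469 and 0.502 in K56A and 0.510 and 0.539 in WT, against 0.544 and 0.590 in EV. The same ratio was 1.14 and 1.16 in EPZ, against 1.08 and 1.08 in DMSO. The antagonists together thus had about the FPKM of MYC in cells without knockdown and about 0.5 times it in the knockdown lines. These sums include retained-intron transcripts, which held larger shares of MNT, MXD3 and MXD4 in the knockdown lines than in cells without knockdown. The 2 experiments were normalized separately and differ in more than the hairpin, and no test was made between them.

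**Figure D3:**
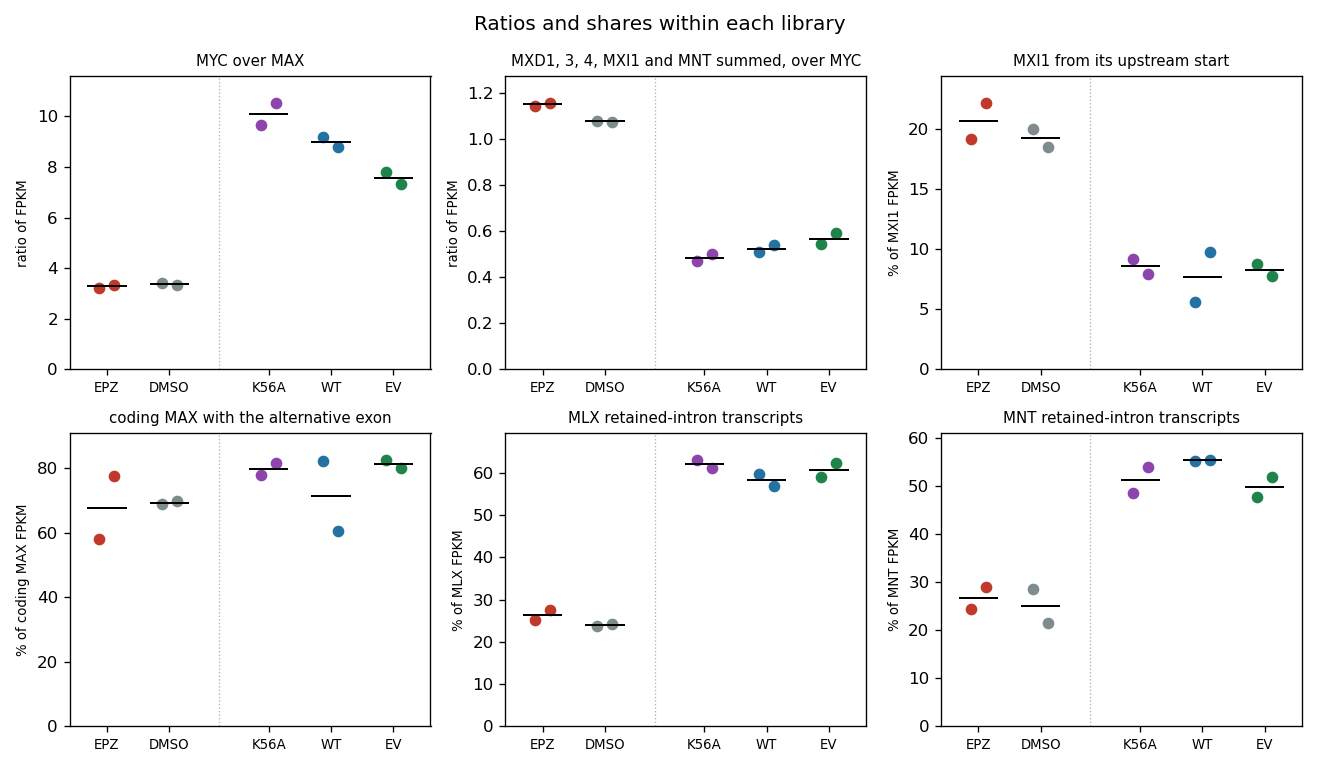
Ratios of FPKM and shares of FPKM within each library (points), with the mean of 2 libraries (bars) and every axis from 0. The top row gives MYC over MAX, the antagonists summed over MYC, and the share of MXI1 from its upstream start; the bottom row gives the share of coding MAX with the alternative exon and the retained-intron shares of MLX and MNT. The inhibitor libraries, left of the dotted line, stand apart from the knockdown libraries in all but the MAX exon panel.

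MAX is made with or without a short alternative exon just ahead of the basic region, which gives a longer and a shorter protein. The exon is 27 bases long (chr14:65101546-65101572, minus strand, GRCh38, GENCODE 29). It is shown in capitals with 15 bases of the flanking exons on each side, since it sets the coding transcripts of MAX apart.
MAX exon in MAX-205: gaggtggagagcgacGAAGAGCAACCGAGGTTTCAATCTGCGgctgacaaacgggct
Transcripts with the exon held 78.0% and 81.7% of coding MAX FPKM in K56A and 82.3% and 60.7% in WT, against 82.7% and 80.0% in EV. The share was 57.95% and 77.6% in EPZ, against 69.0% and 69.8% in DMSO. A library of WT and one of EPZ stood low beside their own replicate, and the groups overlapped in every comparison. Transcripts not listed for a group, such as MAX-219 in WT, counted as 0 in these shares. MAX-216, a minor coding transcript, was at 0 in all K56A and WT libraries, against 0.82 and 1.09 FPKM in EV. In the authors' deposited table it was called lower in K56A (adjusted p = 0.00782) and, in the authors' deposited table for WT, in WT too (adjusted p = 0.0196).

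**Figure D4:**
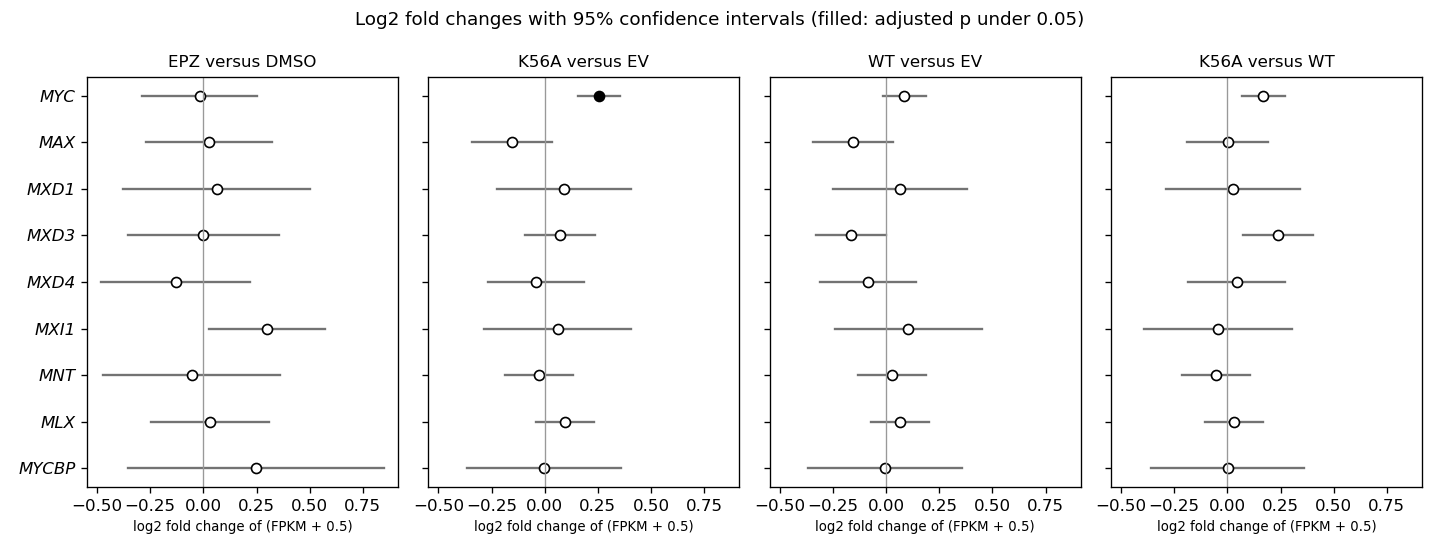
Log2 fold change of (FPKM + 0.5) for the 9 genes in 4 comparisons, first-named group over second-named. Lines are 95% confidence intervals from limma, and the single filled point, MYC in K56A versus EV at 0.26, is the only 1 with an adjusted p under 0.05.

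Among the antagonists, MXI1 (ENSG00000119950, chr10:110207605-110287365, plus strand, GRCh38), a repressor also known as MXD2, was the member that separated EPZ from DMSO. It had 33.9 and 35.7 FPKM in EPZ, against 27.4 and 29.05 FPKM in DMSO. Both EPZ libraries stood above both DMSO libraries. The log2 fold change was 0.30 ± 0.12 (SE; 95% interval 0.024 to 0.57), with an unadjusted p of 0.0366 and a limma adjusted p of 0.756, so it did not pass. MXI1 was the only 1 of 9 members whose EPZ and DMSO libraries did not overlap, where 37.4% of the 13130 genes tested were apart, and the only 1 under an unadjusted p of 0.05, where 5.83% of genes were. No member passed, and of all genes 0.00762% (1 gene, lower) did. In the knockdown lines MXI1 had 13.1 and 16.6 FPKM in K56A and 13.9 and 16.6 FPKM in WT, against 12.4 and 16.0 FPKM in EV. The second library of each line was the higher, and the lines overlapped (log2 fold change 0.06 ± 0.15 for K56A and 0.11 ± 0.15 for WT, SE).

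The 11 listed MXI1 transcripts fall into 2 that start upstream and 9 that start downstream, between chr10 positions 110225993 and 110227643, and upstream starts give proteins with a different amino end. RefSeq gives 3 starts, and the 2 shown lie 18391 bases apart. They are shown because the split between upstream and downstream transcripts differed between the experiments. Capitals mark the first transcribed base of the RefSeq transcript (GRCh38.p14, plus strand) and what follows it.
MXI1 upstream start, chr10:110207555-110207654: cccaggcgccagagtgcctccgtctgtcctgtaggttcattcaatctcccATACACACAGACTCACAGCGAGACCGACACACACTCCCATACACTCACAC
MXI1 downstream start, chr10:110225946-110226045: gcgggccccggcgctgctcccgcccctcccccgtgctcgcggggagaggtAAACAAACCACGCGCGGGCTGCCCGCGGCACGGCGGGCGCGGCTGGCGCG
The 2 upstream transcripts held 19.2% and 22.2% of MXI1 FPKM in EPZ, against 20.0% and 18.5% in DMSO. They held 9.21% and 7.95% in K56A and 5.61% and 9.78% in WT, against 8.75% and 7.74% in EV. Within each experiment the groups overlapped, and every inhibitor library had a larger upstream share than every knockdown library. Transcripts not listed for a group, such as MXI1-212 in K56A, counted as 0 in these shares, while EV drew on both knockdown tables. The higher MXI1 of EPZ lay in both kinds of transcript: the upstream transcripts had 6.50 and 7.93 FPKM in EPZ, against 5.48 and 5.39 FPKM in DMSO, and the downstream ones had 27.4 and 27.7 FPKM in EPZ, against 21.9 and 23.7 FPKM in DMSO. MXI1-217, a downstream transcript, had 4.01 and 12.4 FPKM in EPZ, against 7.37 and 11.2 FPKM in DMSO, a wide spread within each group. MXI1-212, also downstream, had 6.435 and 8.63 FPKM in EPZ, against 0 and 4.24 FPKM in DMSO, with the libraries apart. The authors' deposited table did not call it. MXI1-205, a further downstream transcript, had 1.55 and 0.77 FPKM in K56A and was listed at 0 in EV, and the authors' deposited table called it higher (adjusted p = 0.00141). Its WT values were not analysed here.

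MXD3 (ENSG00000213347, chr5:177301461-177312757, minus strand, GRCh38), a repressor linked to proliferating cells, was the member with the widest gap on the log2 scale between the mutant and the wild-type kinase. It had 22.3 and 19.7 FPKM in K56A and 17.9 and 17.6 FPKM in WT, against 19.6 and 20.2 FPKM in EV. WT stood below both other groups, which overlapped with each other. K56A against WT gave a log2 fold change of 0.24 ± 0.07 (SE), an unadjusted p of 0.0109 and a limma adjusted p of 0.237. WT against EV gave -0.16 ± 0.07 (SE; limma adjusted p = 0.377), and K56A against EV gave 0.07 ± 0.07 (SE; limma adjusted p = 0.688). Of 9 members, MYC and MXD3 were under an unadjusted p of 0.05 in K56A against WT and the same pair had libraries apart, where 13% of genes were under that p and 45.4% were apart. None of the 9 passed there, against 0.0605% of genes (2 higher and 5 lower, or 7 higher and 9 lower when rescaled without mitochondrial genes).

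Genes rich in GC stood on the same side as MXD3 in that comparison. At 61.3% GC, MXD3 lay in the top quartile of genes by GC, from 56.9% up, whose median log2 fold change in K56A against WT was 0.10, against -0.040 in the bottom quartile. With trends on GC and length removed, an alternative chosen after seeing the data, the MXD3 value was 0.14 (limma adjusted p = 0.625). By transcript, coding MXD3-203 had 9.59 and 8.82 FPKM in K56A and 6.26 and 6.52 FPKM in WT, against 6.27 and 7.45 FPKM in EV, so K56A stood above both other lines. MXD3-208 had 1.88 and 0.18 FPKM in K56A and 0.07 and 0.28 FPKM in WT, against 4.19 and 1.12 FPKM in EV, and the authors' deposited table called it lower in WT (adjusted p = 0.0186). MXD3 shares 1158 exonic bases with PRELID1 on the opposite strand and 926 with RAB24 on its own. PRELID1 averaged 76.6 FPKM in the knockdown libraries, and with no strand setting given the reads of MXD3 and PRELID1 cannot be told apart there. In the inhibitor experiment MXD3 had 22.2 and 20.3 FPKM in EPZ, against 24.1 and 18.7 FPKM in DMSO, with EPZ inside the span of DMSO.

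The other dedicated repressors showed no call. MXD4 (ENSG00000123933, chr4:2247432-2262109, minus strand, GRCh38), a repressor of resting and differentiated cells, had 6.98 and 7.27 FPKM in K56A and 7.26 and 6.55 FPKM in WT, against 6.88 and 7.84 FPKM in EV. It had 19.4 and 17.3 FPKM in EPZ, against 22.5 and 18.0 FPKM in DMSO. The groups overlapped in every comparison, and the first DMSO library stood above the rest (log2 fold change -0.13 ± 0.15 under the inhibitor, SE). Its main transcript, MXD4-201, had 5.22 and 4.86 FPKM in K56A and 5.09 and 5.13 FPKM in WT, against 4.91 and 5.17 FPKM in EV, and 16.4 and 12.6 FPKM in EPZ, against 19.7 and 14.5 FPKM in DMSO. MXD1 (ENSG00000059728, chr2:69897688-69942945, plus strand, GRCh38), which is induced as cells leave the cycle, was the least abundant member, with 2.81 and 3.14 FPKM in EPZ, against 2.95 and 2.704 FPKM in DMSO. In the knockdown lines MXD1 had 1.99 and 2.12 FPKM in K56A and 1.95 and 2.06 FPKM in WT, against 1.96 and 1.84 FPKM in EV. Both K56A libraries stood just above EV, by a log2 fold change of 0.09 ± 0.14 (SE; limma adjusted p = 0.806). MXI1 and MXD4 hold over 5% of their FPKM in transcripts listed in only 1 of the knockdown tables, up to 9.58% and 9.40%, so their knockdown values come from a fit of 13850 genes that kept such genes.

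MNT (ENSG00000070444, chr17:2384073-2401060, minus strand, GRCh38) is the broadly expressed antagonist that cells keep throughout the cycle. It had 15.8 and 16.0 FPKM in K56A and 17.4 and 15.6 FPKM in WT, against 15.9 and 16.4 FPKM in EV. It had 7.94 and 7.59 FPKM in EPZ, against 9.50 and 6.87 FPKM in DMSO. Groups overlapped within each experiment, and no comparison passed. The coding transcript MNT-201 had 7.14 and 6.55 FPKM in K56A and 6.34 and 6.77 FPKM in WT, against 6.17 and 7.09 FPKM in EV, and 6.002 and 5.38 FPKM in EPZ, against 6.79 and 5.39 FPKM in DMSO. The coding transcript was thus between 5.38 and 7.14 FPKM in all 10 libraries, and the gene sum was higher in the knockdown lines by more than that range, with the rest in transcripts annotated mostly as retained introns. Those held 48.5% and 54.0% of MNT FPKM in K56A and 55.3% and 55.5% in WT, against 47.8% and 51.9% in EV. They held 24.4% and 29.1% in EPZ, against 28.5% and 21.6% in DMSO.

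MLX (ENSG00000108788, chr17:42567072-42573239, plus strand, GRCh38) was the second most abundant member in every group. It had 32.1 and 31.4 FPKM in K56A and 32.6 and 29.7 FPKM in WT, against 29.6 and 29.8 FPKM in EV. Both K56A libraries stood above both EV libraries (log2 fold change 0.09 ± 0.06, SE; limma adjusted p = 0.493), and WT overlapped EV. It had 39.4 and 39.5 FPKM in EPZ, against 36.5 and 40.9 FPKM in DMSO, with EPZ inside the span of DMSO. Coding transcripts of MLX summed to 11.9 and 12.2 FPKM in K56A and 13.1 and 12.8 FPKM in WT, against 12.1 and 11.2 FPKM in EV. They summed to 29.5 and 28.7 FPKM in EPZ, against 27.9 and 31.0 FPKM in DMSO. The modest gap between the experiments in the gene sum hides a wider one in coding MLX, because retained-intron transcripts held 63.1% and 61.0% of MLX FPKM in K56A and 59.7% and 56.9% in WT, against 59.0% and 62.4% in EV, but 25.2% and 27.4% in EPZ, against 23.8% and 24.1% in DMSO. Over all nuclear genes, retained-intron transcripts took 13.8% of FPKM in both K56A libraries and 13.5% and 13.4% in WT, against 13.5% and 13.3% in EV, and 7.77% and 7.94% in EPZ, against 7.59% and 7.44% in DMSO. MLX shares 770 exonic bases with PSMC3IP on the opposite strand, whose mean was 30.6 FPKM in the knockdown libraries and 11.3 FPKM in the inhibitor libraries, and its part in these shares was not tested.

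MYCBP (ENSG00000214114, chr1:38862493-38873368, minus strand, GRCh38) encodes a small protein that binds MYC. It had 14.9 and 25.5 FPKM in EPZ, against 13.7 and 19.5 FPKM in DMSO. The groups overlapped, and the spread between replicates was the widest of any member (log2 fold change 0.25 ± 0.26, SE; limma adjusted p = 0.811). It passed only in the fit without DMSO replicate 2 (limma adjusted p = 0.0324), a fit in which 1560 genes passed. That spread lay in MYCBP-202, a processed transcript, at 1.89 and 11.3 FPKM in EPZ, against 2.56 and 6.70 FPKM in DMSO. Coding MYCBP-201 had 9.65 and 10.9 FPKM in EPZ, against 9.46 and 11.7 FPKM in DMSO. MYCBP-203 had 3.38 and 3.33 FPKM in EPZ, against 1.713 and 1.149 FPKM in DMSO, with the libraries apart. Coding MYCBP transcripts together summed to 13.04 and 14.25 FPKM in EPZ, against 11.17 and 12.81 FPKM in DMSO, also apart. The gene had 9.83 and 9.68 FPKM in K56A and 9.11 and 10.4 FPKM in WT, against 11.9 and 8.05 FPKM in EV, with K56A and WT inside the span of EV. MYCBP shares 977 exonic bases with the readthrough gene GJA9-MYCBP on its own strand.

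Across the 9 genes, 4 had K56A and EV libraries apart (MYC, MAX, MXD1 and MLX), where 45.6% of all genes did, and the separation of MAX rests on the transcripts summed. In WT against EV, 3 were apart (MYC, MAX and MXD3), where 43.5% of all genes were, and none passed, against 0.536% of genes. At an unadjusted p under 0.05 there was 1 member in K56A against EV (MYC), where 15.1% of genes were, and 0 members in WT against EV, where 13.5% were. The median log2 fold change over the members was 0.06 in K56A against EV, beside 0.026 over all genes, and 0.027 in WT against EV, beside 0.0084. It was 0.027 in EPZ against DMSO, beside 0.0020, and 0.026 in K56A against WT, beside 0.013. Libraries that did not overlap were thus about as common as, or less common than, the background in all 4 comparisons, and say nothing about the members as a set.

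In the order of levels, MYC, then MLX, led every group, with libraries apart from the next member, and MXD1 closed every group. In EPZ and DMSO, MXI1 followed MLX, and the next 4 members (MAX, MXD3, MYCBP and MXD4) overlapped with their neighbours. In K56A, WT and EV, MXD3 followed MLX, and MNT came next, its libraries overlapping those of MXI1. MXI1 and MAX overlapped in K56A and EV and were apart in WT. With all transcripts of the K56A table summed, MXI1 had 14.65 and 17.65 FPKM in K56A. MAX then had 13.44 and 12.23 FPKM, so the genes were apart there. MNT thus had rank 8 of 9 in EPZ and DMSO and rank 4 in the knockdown lines, and MXD4 had rank 7 in EPZ, 6 in DMSO and 8 in the knockdown lines. The place of MNT above MXI1 in K56A and WT rests on which transcripts are summed. With all transcripts of the WT table summed, MXI1 had 16.75 and 17.04 FPKM in WT, beside 17.35 and 15.63 FPKM for MNT.

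The genes whose pattern over the 6 knockdown libraries was most like that of MYC were MYH14, CDC42BPG, MBD6, SLC4A3 and LRRC46, by the root-mean-square difference of log2 values centred per gene. The difference was 0.0142 for MYH14 and 0.0202 for LRRC46, beside a median of 0.136 over the 11559 genes compared. MYH14 had 16.6 and 15.8 FPKM in K56A and 14.8 and 13.99 FPKM in WT, against 13.4 and 13.9 FPKM in EV. MBD6 had 41.9 and 39.4 FPKM in K56A and 36.2 and 34.3 FPKM in WT, against 33.5 and 33.9 FPKM in EV. None of the 5 passed in any of the 3 knockdown comparisons, with limma adjusted p of 0.0836 or more.

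No gene passed among the partners around the network. The share of all genes under an unadjusted p of 0.05 was 5.83% in EPZ against DMSO, 15.1% in K56A against EV, 13.5% in WT against EV and 13% in K56A against WT, and counts under that p are given below in this order of comparisons. MLXIP (MondoA), MLXIPL (ChREBP), MGA and MYCL were tested, with 0, 1, 0 and 0 of the 4 under that p, and MYCN was not analysed here. MLXIPL had 74.0 and 68.9 FPKM in K56A and 69.0 and 64.9 FPKM in WT, against 64.7 and 66.2 FPKM in EV. Of 11 genes of the SIN3 corepressor, none passed in any comparison and 1, 1, 2 and 0 were under an unadjusted p of 0.05, and the smallest adjusted p was that of ARID4B in K56A against EV (0.25 ± 0.07 log2, SE; limma adjusted p = 0.178). Of 10 MYC cofactors, none passed either, and 1, 2, 0 and 2 were under an unadjusted p of 0.05. KAT5, the TIP60 acetyltransferase, had 26.2 and 26.7 FPKM in K56A and 23.4 and 22.7 FPKM in WT, against 23.1 and 23.4 FPKM in EV (0.19 ± 0.05 log2 against EV, SE; limma adjusted p = 0.178). Of 10 genes of MYC protein turnover, 10 were tested under the inhibitor and 7 in the knockdown lines. None passed, and 0 of 10, 2 of 7, 1 of 7 and 3 of 7 were under an unadjusted p of 0.05. HUWE1, a ubiquitin ligase that acts on MYC, had 87.3 and 83.3 FPKM in K56A and 83.2 and 84.0 FPKM in WT, against 76.4 and 75.9 FPKM in EV (0.16 ± 0.04 log2 for K56A against EV, SE; limma adjusted p = 0.144). Of 9 regulators of MYC transcription, including CTNNB1 and TCF7L2, 8 were tested. None passed, and 0, 2, 0 and 0 were under an unadjusted p of 0.05. CTNNB1, which encodes beta-catenin, had 106.0 and 105.6 FPKM in K56A and 106.8 and 110.8 FPKM in WT, against 110.8 and 115.4 FPKM in EV. PVT1, a noncoding RNA next to MYC, was tested under the inhibitor only, with 19.2 and 26.3 FPKM in EPZ, against 30.6 and 26.4 FPKM in DMSO (-0.34 ± 0.17 log2, SE; limma adjusted p = 0.756).

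Known target genes of MYC showed few calls. None of 24 genes of ribosome biogenesis passed in any comparison, and 1, 4, 5 and 4 were under an unadjusted p of 0.05, in the same order of comparisons. Their median log2 fold change was 0.035 in K56A against EV, beside 0.026 over all genes, with 15 above 0 and 9 below. It was -0.024 in WT against EV, beside 0.0084. In EPZ against DMSO it was -0.11, beside 0.0020, with 7 above 0 and 17 below. IPO4, a nuclear import receptor for ribosomal proteins, had 16.4 and 13.6 FPKM in EPZ, against 22.0 and 18.3 FPKM in DMSO (-0.42 ± 0.15 log2, SE; limma adjusted p = 0.756). GNL3, the nucleolar GTPase nucleostemin, had 142.0 and 148.5 FPKM in K56A and 142.8 and 148.0 FPKM in WT, against 132.8 and 133.0 FPKM in EV (limma adjusted p = 0.203 for K56A and 0.212 for WT). In the inhibitor experiment the bottom quartile of genes by GC had a median of 0.13 and the top quartile one of -0.13, and the part of GC in the list's median was not tested.

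Of 27 MYC-induced genes of metabolism and growth, 24 were tested under the inhibitor and 25 in the knockdown lines. Under a limma unadjusted p of 0.05 were 2 of 24 in EPZ against DMSO, beside 5.83% of all genes. In K56A against EV 6 of 25 were, beside 15.1%, and in WT against EV 6 of 25, beside 13.5%. In K56A against WT 9 of 25 were, beside 13%, with 11 of the 25 above 0 and 14 below. The single call was SLC7A5, a transporter of large neutral amino acids, which fell in WT, at 180 and 179 FPKM, against 225 and 226 FPKM in EV (-0.33 ± 0.04 log2, SE; limma adjusted p = 0.0257). That call held in 9 of 13 alternatives and in none of the 4 without a WT or EV library, with adjusted p up to 0.182. SLC7A5 had 207 and 195 FPKM in K56A (-0.17 ± 0.04 log2 against EV, SE; limma adjusted p = 0.105). The list's median was -0.035 in K56A against EV and -0.026 in WT against EV, and 18 of 25 genes were below 0 in K56A against EV, beside 57.7% of all genes above 0. In EPZ against DMSO the median was -0.097, with 18 of 24 genes below 0. SRM, the spermidine synthase, had 49.5 and 44.0 FPKM in EPZ, against 65.7 and 55.3 FPKM in DMSO (-0.37 ± 0.13 log2, SE; limma adjusted p = 0.756).

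Genes that MYC is known to repress had 1 call in the knockdown lines. GADD45A, a stress gene also induced by other pathways, rose in K56A, at 60.4 and 54.8 FPKM, against 40.3 and 41.9 FPKM in EV (0.48 ± 0.07 log2, SE; limma adjusted p = 0.0342). That call held in 6 of 13 alternatives and in none of the 4 without a K56A or EV library, with adjusted p up to 0.208. In WT, GADD45A had 49.9 and 56.9 FPKM (0.37 ± 0.07 log2 against EV, SE; limma adjusted p = 0.0827). Of 6 such genes tested in K56A against EV, 5 were above 0, with a median of 0.22, beside 57.7% above 0 and a median of 0.026 over all genes. At an unadjusted p under 0.05 there were 4 of these 6, beside 15.1% of all genes. In WT against EV, 5 of the 6 were also above 0, with a median of 0.17, beside 0.0084 over all genes. There 2 were under that p, beside 13.5% of all genes. In K56A against WT, 4 were above 0 and 2 below, with a median of 0.074, beside 0.013, and 0 were under that p, beside 13%. None of 8 passed under the inhibitor, where the median was 0.026 and 0 were under an unadjusted p of 0.05. Of 6 target genes of MondoA and MLX, 4 were tested in K56A against EV and none passed, with 3 under an unadjusted p of 0.05, beside 15.1% of all genes. The 5 tested under the inhibitor had a median of 0.19, and none passed, with 0 under an unadjusted p of 0.05, beside 5.83% of all genes. ARRDC3, an arrestin-like adaptor, had 20.4 and 19.7 FPKM in K56A and 15.6 and 16.6 FPKM in WT, against 15.9 and 14.5 FPKM in EV (0.39 ± 0.07 log2 for K56A against EV, SE; limma adjusted p = 0.0575). Both K56A libraries stood above the libraries of the other lines. HK2, a hexokinase of glycolysis, had a value below 0, with 8.26 and 8.63 FPKM in K56A and 8.69 and 9.29 FPKM in WT, against 10.99 and 10.3 FPKM in EV (-0.32 ± 0.08 log2 for K56A against EV, SE; limma adjusted p = 0.132, and 0.252 for WT). Its K56A and WT libraries all stood below EV.

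**Figure D5:**
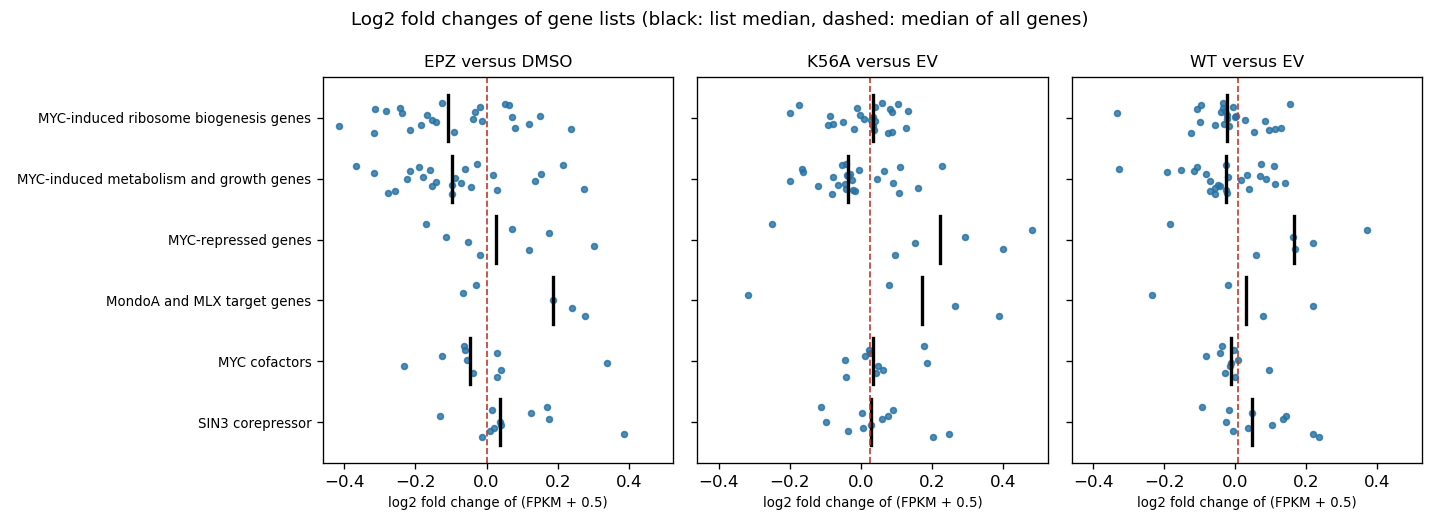
Log2 fold change of (FPKM + 0.5) of each tested gene (points) of 6 lists in 3 comparisons, first-named group over second-named. Black bars are list medians and the dashed line the median of all genes tested; the medians of both MYC-induced lists lie at -0.11 and -0.097 under the inhibitor and within 0.04 of 0 in K56A and WT.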

How the data were processed

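RNA was measured by mRNA sequencing, and per the labels' protocols 150 ng of total RNA went into each TruSeq library. The authors deposited 3 tables of FPKM per transcript, for EPZ and DMSO, for WT and EV, and for K56A and EV. Per the submitters' processing notes, Trim Galore 0.6.6, STAR 2.7.1a, RSEM 1.3.3, DESeq2 1.32.0 and build GRCh38 were used, with no roles stated. Neither annotation release nor strandedness is given in the sources used here. Per the file headers, edgeR gave the authors' log2 values of fold change and p-values for the inhibitor, and DESeq2 gave them for the knockdown lines; both were only described. Of the deposited columns, 4 of per-group summaries were not used.

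Transcript FPKM were summed per gene. The EV libraries stand in both knockdown tables, so K56A was multiplied by their ratio, 1.00066. Only the 69086 transcripts in both knockdown tables were summed, and genes with over 5% of FPKM in other transcripts were left out (2284 of 13850), except to describe MXI1 and MXD4. Absence from a table did not mean 0. Although both EV libraries were above 0, 1211 transcripts of the WT table and 2458 of the K56A table were missing from the other. Missing values were therefore not filled with 0 in the gene sums and fits. In the MAX exon and MXI1 start shares, the values by transcript type and the stacked bars, transcripts not listed counted as 0. In limma 3.58.1 (run in R 4.3.3), log2(FPKM + 0.5) was fitted with an intensity trend for genes that reached 1 FPKM in 2 or more libraries, and p-values were adjusted by Benjamini-Hochberg over all genes at 0.05, 13130 genes for the inhibitor and 11566 for the 6 knockdown libraries together. Fold changes are on that scale, which understates changes of low genes. Reads could not be counted from the files, so no interval for counting error is given. Alternatives varied the pseudocount, filter, scaling, block, transcripts summed and libraries.

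All 9 members are named. The rule also covered transcripts that held 10% or more of a gene's FPKM in the mean of a group. The text gives some of these, and others such as those the authors called, picked with their values known. From the other lists the rule covered genes that passed and some with the smallest p. The members and lists were chosen with earlier results of these data known. Sequences were read from RefSeq (GRCh38.p14) and GENCODE 29 (GRCh38). Tables and plots used Python 3.11.15, pandas 2.3.3 and matplotlib 3.10.9.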

Additional observations from a re-analysis of the deposited data

How the results depend on the processing

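Of 441 values recomputed for single members under alternatives, 384 kept their direction and side of the threshold, 46 changed sign, 10 lost the call and 1 gained it. The 10 losses are all MYC in K56A versus EV, which passed with a pseudocount of 1, rescaled without mitochondrial genes and with GC and length trends removed. No member passed (0) in K56A versus EV with a pseudocount of 0.1, no filter, median ratio scaling, the replicate block, the one-table sums, no limit on single-table transcripts or any left-out library. Of all genes, in EPZ versus DMSO 0 passed with a pseudocount of 0.1, with no filter and with GC and length trends removed, and leaving out a library gave 34 to 1560, with 0 to 1 member. In K56A versus EV, 55 passed with no filter, 22 with one-table sums and 6 to 38 without a library. In WT versus EV, 40 passed with no filter, 105 rescaled without mitochondrial genes, 102 with GC and length trends removed, 10 with one-table sums and 2 to 7 without a library. In K56A versus WT, 1 passed with no filter, 16 rescaled without mitochondrial genes and 1 to 2 without a library. Fewer libraries leave less to estimate the spread from; the cause of the other changes was not tested.

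Replicate numbers were shared between groups, and the deviations of same-numbered libraries correlated at 0.245 across genes for EPZ and DMSO, 0.033 for WT and EV, -0.015 for K56A and EV and -0.033 for K56A and WT. The labels give only the number, so whether these libraries, 2 pairs in each comparison, were paired is not known. With the replicate block 2 genes passed in EPZ versus DMSO, 53 in K56A versus EV, 46 in WT versus EV and 3 in K56A versus WT, and MYC in K56A versus EV had 0.26 (limma adjusted p = 0.0590). In EPZ versus DMSO the block gave MXI1 a limma adjusted p of 0.180, against 0.756 without it. For MYCBP it gave 0.298, against 0.811, and no member passed with the block.

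None of the values that changed sign was called. Leaving out a library in turn, in EPZ versus DMSO the log2 fold change ranged from -0.11 to 0.078 for MYC, -0.047 to 0.10 for MAX, -0.0056 to 0.13 for MXD1, -0.18 to 0.18 for MXD3, -0.29 to 0.027 for MXD4, -0.28 to 0.16 for MNT, -0.049 to 0.11 for MLX and -0.13 to 0.63 for MYCBP. In K56A versus EV it ranged from -0.015 to 0.16 for MXD3, -0.13 to 0.047 for MXD4, -0.12 to 0.24 for MXI1 and -0.27 to 0.26 for MYCBP. In WT versus EV it ranged from -0.17 to 0.0035 for MXD4, -0.074 to 0.28 for MXI1, -0.046 to 0.10 for MNT, -1.6e-05 to 0.13 for MLX and -0.27 to 0.26 for MYCBP. In K56A versus WT it ranged from -0.089 to 0.091 for MAX, -0.011 to 0.063 for MXD1, -0.026 to 0.11 for MXD4, -0.21 to 0.12 for MXI1, -0.13 to 0.020 for MNT, -0.036 to 0.095 for MLX and -0.090 to 0.093 for MYCBP. With GC and length trends removed, EPZ versus DMSO gave 0.022 for MYC, -0.021 for MXD1, 0.12 for MXD3 and 0.075 for MNT, and K56A versus WT gave -0.013 for MAX and -0.026 for MXD4. Rescaled without mitochondrial genes, MXD3 had 0.014 in EPZ versus DMSO, and MAX had -0.0067 and MYCBP -0.0061 in K56A versus WT. With median ratio scaling, K56A versus WT gave -0.014 for MAX and -0.014 for MYCBP.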
